A study of Homo sapiens with 10 samples.

Results

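The 2 mutant knock-in samples were compared with the 2 senescent control samples of the same count table, 4 of its 10 samples, across all genes. Members were taken by the column names, and 16915 of the 57736 genes passed the filter on low counts and were tested. All samples are IMR90, human fetal lung fibroblasts. In mutant knock-in cells a RAS retrovirus, an siRNA against METTL3 and a mutant METTL3 from a lentivirus were combined. Wild type knock-in cells had the same RAS and siRNA and a wild type METTL3. METTL3 knockout cells had RAS and the siRNA, and the titles call them a knockout although the protocol describes an siRNA. Senescent control cells had RAS and a control siRNA. Non-senescent control cells had an empty retrovirus in place of RAS. RAS is thus shared by all groups but the last. The METTL3 mutation is not named in the labels, and the protocol text speaks of METTL14 where the titles and columns speak of METTL3. The column names of METTL3 knockout hold the word vec, which senescent control lacks, and the labels do not say if an empty lentivirus was given to senescent control. Lentivirus, siRNA and knock-in therefore cannot be told apart when mutant knock-in is set against senescent control. Per the labels' protocols, cells were seeded on day 4 after retrovirus infection, transfected, and transfected again with the lentivirus on the next day. They were harvested 48 h after the last treatment. No label says that replicates were grown apart, so all p-values refer to the spread among the sequenced samples only, and that spread may be technical.

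METTL3 is the catalytic subunit of the nuclear complex that writes N6-methyladenosine (m6A), the most frequent internal mark of messenger RNA, and it works as a dimer with METTL14. The mark is read by YTH-domain proteins and bears on the stability, splicing and translation of RNA. Oncogenic RAS drives fibroblasts into senescence, a lasting arrest in which cells secrete cytokines, chemokines, proteases and growth factors, together called the senescence-associated secretory phenotype (SASP). The title of the series asks how METTL3 and METTL14 act on that secretory programme apart from the mark.

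METTL3 (ENSG00000165819) was read in every sample as a check of the labels. Its level was 120016 and 155272 CPM (counts scaled to 1000000 counts of the other genes) in mutant knock-in and 59818 and 60730 CPM in wild type knock-in. It was 24.5 and 30.2 CPM in METTL3 knockout, 49.5 and 59.97 CPM in senescent control and 73.7 and 83.2 CPM in non-senescent control. The mean of the mutant knock-in was 2514 times that of senescent control and 2.28 times that of wild type knock-in. METTL3 took 11.3% (95% Clopper-Pearson interval 11.30 to 11.33) and 14.2% of all mutant knock-in counts, and at most 0.00562% of senescent control counts. Its row was therefore left out of library totals and of the test. Total counts ran from 16293975 to 23570266 per sample over the table, with 16911841 and 16401466 in mutant knock-in and 18334396 and 22329688 in senescent control. In spite of the lower totals, 25264 and 25581 genes had at least 1 count in mutant knock-in, against 22704 and 22843 in senescent control. COL1A1, COL1A2 and VIM, from a list of 10 fibroblast markers, stood at 745 CPM or more in all 4 samples. The list summed to 6252 and 5530 CPM in mutant knock-in, against 10296 and 11074 CPM in senescent control. In bulk RNA, fewer cells of a type and less RNA per cell cannot be told apart.

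Mutant knock-in differed from senescent control across the whole transcriptome. Of the 16915 genes, 4615 (27.3%) were higher in mutant knock-in and 4356 (25.8%) lower at an adjusted p under 0.05 in edgeR's quasi-likelihood test with Benjamini-Hochberg adjustment. A log2 change of at least 1 was reached by 2203 (13.0%) of all genes upwards and by 910 (5.38%) downwards, and the median of all genes was 0.05. With 2 samples a group, the CPM of the groups did not overlap for 80.7% of all genes, and the genes named for the largest changes were chosen to have no overlap, so a lack of overlap beside a gene only describes its samples. Other settings, such as another scaling, filter or tool or 1 library left out, are mentioned where they changed the call of a gene named here. Genes are said to have risen or fallen, or to be higher or lower, where this test called them, with log2 changes of mutant knock-in over senescent control unless another group is named. Each standard error (SE) comes from a dispersion estimated over all 10 samples and not from the compared groups alone.

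Inducible Hsp70 genes were among the 10 largest rises. HSPA6 (ENSG00000173110), a strictly inducible Hsp70 chaperone, had 534 and 677 CPM in the mutant knock-in samples, against 0.517 and 0.382 CPM in the senescent control samples. It was almost silent in senescent control and strongly expressed in both mutant knock-in samples, and it rose by 10.39 (SE 0.20) on the log2 scale (edgeR adjusted p 1.6e-11). HSPA1A and HSPA1B, the near-identical main inducible Hsp70 genes, rose by 5.67 (SE 0.12) and 5.41 (SE 0.14), and how reads were shared out between these neighbours is not stated. IFI44L, an interferon-stimulated gene, rose by 5.87 (SE 0.27) and MYCT1, a MYC target, by 5.73 (SE 0.18). ERBB4, a neuregulin receptor, rose by 5.69 (SE 0.34). TNFRSF9, the co-stimulatory receptor 4-1BB, had 169 counts over both mutant knock-in samples against 4 over both senescent control samples and rose by 5.63 (SE 0.50). SCN1A, a neuronal sodium channel, had 252 summed counts against 1, a count ratio of 312 (95% counting interval 55.5 to 12367). HIF1A-AS3, an antisense RNA of HIF1A, had 173 summed counts against 3, a ratio of 71.4 (24.0 to 349), and without known strandedness its reads cannot be told from those of its partner.

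Cytokine, chemokine and protease genes of the SASP were among the 10 largest falls. IL1B (ENSG00000125538), the alarm cytokine interleukin-1 beta, had 9.03 and 7.65 CPM in the mutant knock-in samples, against 166 and 133 CPM in the senescent control samples. Both mutant knock-in samples lay far under both senescent control samples, and IL1B fell by 4.16 (SE 0.18) on the log2 scale (edgeR adjusted p 3.37e-08). CSF3, which drives neutrophil production, fell by 4.25 (SE 0.27). The stromelysin MMP3 fell by 3.17 (SE 0.11) and the monocyte attractant CCL2 by 2.80 (SE 0.16). LCE2C and LCE1F, late cornified envelope genes, fell by 5.27 (SE 0.57) and 3.33 (SE 0.19). KRTAP2-3 and KRTAP1-5, keratin-associated proteins whose close copies may share reads, fell by 3.0 (SE 0.24) and 2.79 (SE 0.25). TRPA1, an irritant-gated cation channel, fell to 39.4 and 32.7 CPM in mutant knock-in, against 363 and 366 CPM in senescent control, a log2 change of -3.34 (SE 0.16). DCC, a netrin receptor, fell by 2.69 (SE 0.12).

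**Figure D1:**
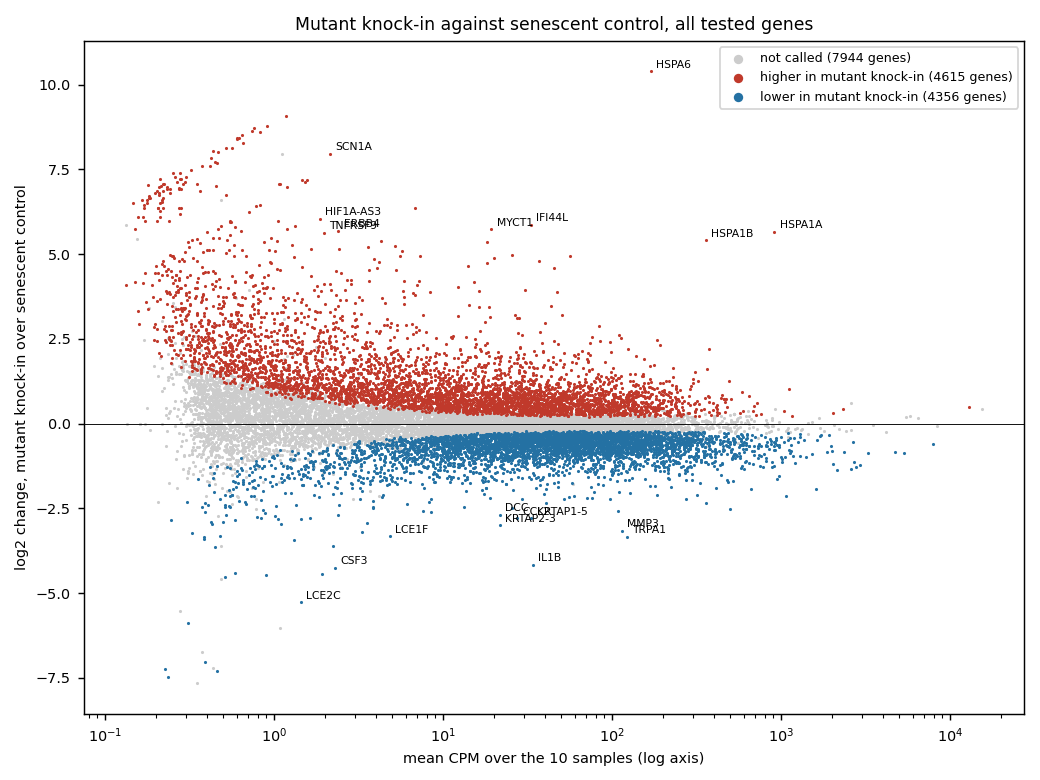
Log2 change of mutant knock-in over senescent control (vertical axis) against mean CPM over the 10 samples (log horizontal axis) for the 16915 tested genes, red for the 4615 higher and blue for the 4356 lower in mutant knock-in. Of the 10 largest changes each way among genes that met the naming rule, 9 rises and all 10 falls are labelled, and HSPA6 stands alone at the top at 10.39.

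Heat shock genes were mostly higher. Heat shock factor HSF1 turns these genes on when unfolded proteins build up, by binding repeats of GAA and TTC called heat shock elements. Of 19 heat shock genes, 17 rose and 1 fell, with a median of 1.03 beside 0.05 for all genes, and 27.3% of all genes rose. All 15 inducible chaperones rose, with a median of 1.52. With any 1 of the 4 libraries left out, 13 of the 19 genes rose and 1 fell. HSPA1A had 2901 and 3329 CPM in the mutant knock-in samples, against 61.1 and 61.5 CPM in the senescent control samples, and HSPA1B had 1116 and 1342 CPM in mutant knock-in, against 30.5 and 27.5 CPM in senescent control. The groups stood far apart for both genes. DNAJA4, an Hsp40 co-chaperone, rose by 4.19 (SE 0.21) and DNAJB1, the main inducible Hsp40, by 2.21 (SE 0.09). CRYAB, a small heat shock protein, rose by 1.83 (SE 0.10), the Hsp110 genes HSPH1 and HSPA4L by 1.52 (SE 0.15) and 1.81 (SE 0.17), and the co-chaperone BAG3 by 1.18 (SE 0.11). HSP90AA1, the inducible cytosolic Hsp90, rose by 1.03 (SE 0.15), while the constitutive HSP90AB1 rose by 0.23 (SE 0.09), a call lost in 6 of 14 other settings. HSPD1 and HSPE1, the mitochondrial chaperonin and its partner, rose by 0.58 (SE 0.13) and 0.28 (SE 0.09), the second call being lost in 5 settings. HSPA8, the constitutive Hsp70, had 2435 and 2439.8 CPM in mutant knock-in, against 2709 and 2881 CPM in senescent control, and did not pass the test, at -0.20 (SE 0.08, edgeR adjusted p 0.0635), but was called lower in 5 settings. HSF1 itself was lower, at 60.2 and 58.03 CPM in mutant knock-in, against 79.6 and 82.7 CPM in senescent control, a log2 change of -0.46 (SE 0.10). The list summed to 12916 and 14331 CPM in mutant knock-in, against 6190 and 6364 CPM in senescent control.

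Promoter sequences of 3 of these genes are given because the element is visible in them. Each line holds the 130 bases before an annotated start, from RefSeq on GRCh38.p14, with matches to GAANNTTC on either strand in capitals. DNAJB1 has 3 annotated starts, and the 130 bases before each start not shown hold 0 matches.
HSPA6 (chr1:161524410-161524539, plus strand): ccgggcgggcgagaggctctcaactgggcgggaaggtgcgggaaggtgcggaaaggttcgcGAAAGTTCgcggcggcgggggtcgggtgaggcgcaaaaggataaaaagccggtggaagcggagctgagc
HSPA1A (chr6:31815413-31815542, plus strand): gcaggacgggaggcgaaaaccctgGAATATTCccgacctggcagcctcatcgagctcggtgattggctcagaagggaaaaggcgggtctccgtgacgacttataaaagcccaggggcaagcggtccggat
DNAJB1 (chr19:14518398-14518527, minus strand): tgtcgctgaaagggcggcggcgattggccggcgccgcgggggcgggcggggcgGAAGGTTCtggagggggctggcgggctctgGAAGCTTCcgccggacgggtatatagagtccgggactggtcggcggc
Of the 19 genes, 17 had a promoter entry, with 28 windows of 250 bases before to 50 bases after a start. The letters GAANNTTC occurred in 13 of the 28 windows (46.4%), belonging to 12 genes, and in 6.77% of all 35116 windows of that length. A match is a description of the letters and not of binding.

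Interferon-stimulated genes rose almost without exception. Interferon signals through factors such as STAT2 and IRF9, which bind the interferon-stimulated response element and turn on antiviral genes. Of 42 such genes, 41 rose and none fell, with a median of 3.18 beside 0.05 for all genes, and IFITM2, an antiviral membrane protein, did not pass the test at -0.02 (SE 0.11). All 9 sensors and signalling factors rose, with a median of 1.74. IFIH1, the cytosolic sensor of double-stranded RNA MDA5, had 66.4 and 73.8 CPM in the mutant knock-in samples, against 2.41 and 2.34 CPM in the senescent control samples, and rose by 4.88 (SE 0.18). Its 2 groups were widely separated. RIGI, the sensor RIG-I, rose by 1.61 (SE 0.17), and TLR3, the endosomal sensor, by 1.74 (SE 0.23). IRF7, the factor that amplifies interferon production, rose by 3.85 (SE 0.29), IRF9 by 2.04 (SE 0.14) and STAT2 by 1.32 (SE 0.10). Among effectors 32 of 33 rose, with a median of 3.51. IFI44L had 132 and 122 CPM in the mutant knock-in samples, against 2.13 and 2.20 CPM in the senescent control samples. OAS3, which makes the activator of RNase L, had 202 and 196 CPM in mutant knock-in, against 6.15 and 6.69 CPM in senescent control, and rose by 4.95 (SE 0.22). None of these values overlapped between the groups. RSAD2, the antiviral enzyme viperin, rose by 5.38 (SE 0.47), OAS2 by 5.35 (SE 0.30), the dynamin-like MX2 and MX1 by 5.24 (SE 0.26) and 4.99 (SE 0.29), and IFIT1, which binds uncapped RNA, by 4.60 (SE 0.23). ISG15, a ubiquitin-like modifier, rose by 2.26 (SE 0.20) and the deconjugating enzyme USP18 by 1.83 (SE 0.16). The list summed to 4086 and 3858 CPM in mutant knock-in, 2149 and 1918 CPM in wild type knock-in and 1201 and 1393 CPM in METTL3 knockout. It summed to 959 and 1035 CPM in senescent control and 1042 and 1041 CPM in non-senescent control, so senescent control was no higher than non-senescent control.

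The core of the interferon element, GAAANNGAA, is shown in capitals in the 130 bases before 1 start of each of 2 genes of this list. RSAD2 has another annotated start, and the 130 bases before it hold 0 matches.
IFI44L (chr1:78620318-78620447, plus strand): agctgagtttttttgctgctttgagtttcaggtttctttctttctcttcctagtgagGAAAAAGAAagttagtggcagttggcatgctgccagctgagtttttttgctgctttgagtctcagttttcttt
RSAD2 (chr2:6865755-6865884, plus strand): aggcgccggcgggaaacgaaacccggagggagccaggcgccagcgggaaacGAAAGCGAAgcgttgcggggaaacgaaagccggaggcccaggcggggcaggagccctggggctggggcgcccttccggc
Of the 42 genes, 33 had a promoter entry. The letters occurred on either strand in 29 of their 43 windows (67.4%), belonging to 24 genes, and in 8.11% of all windows.

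HLA class I antigen presentation, which interferon also raises, moved less. Of 11 genes tested from a list of 12, 7 rose and 1 fell (27.3% and 25.8% of all genes), with a median of 0.64. HLA-B rose by 1.24 (SE 0.11) and B2M, the class I light chain, by 0.52 (SE 0.08). The peptide transporter TAP1 rose by 0.89 (SE 0.11) and NLRC5, the class I transactivator, by 0.97 (SE 0.15). TAPBP, which loads peptides, fell by 0.50 (SE 0.12). HLA-F was under the filter on low counts. Leukocyte markers were read beside these genes. Of 11 markers in the table only 4 passed the filter, and PTPRC, the leukocyte common antigen, and CD68 rose, by 3.06 (SE 0.44) and 1.20 (SE 0.09), while LYZ and FCER1G did not pass the test. Their summed level was 180 and 187 CPM in mutant knock-in, against 81.8 and 78.6 CPM in senescent control, and most of it was CD68, a lysosomal protein that fibroblasts also make. CD3E, MS4A1 and TYROBP were at 0 in all 4 samples, and the part of leukocyte RNA in these results was not tested.

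**Figure D2:**
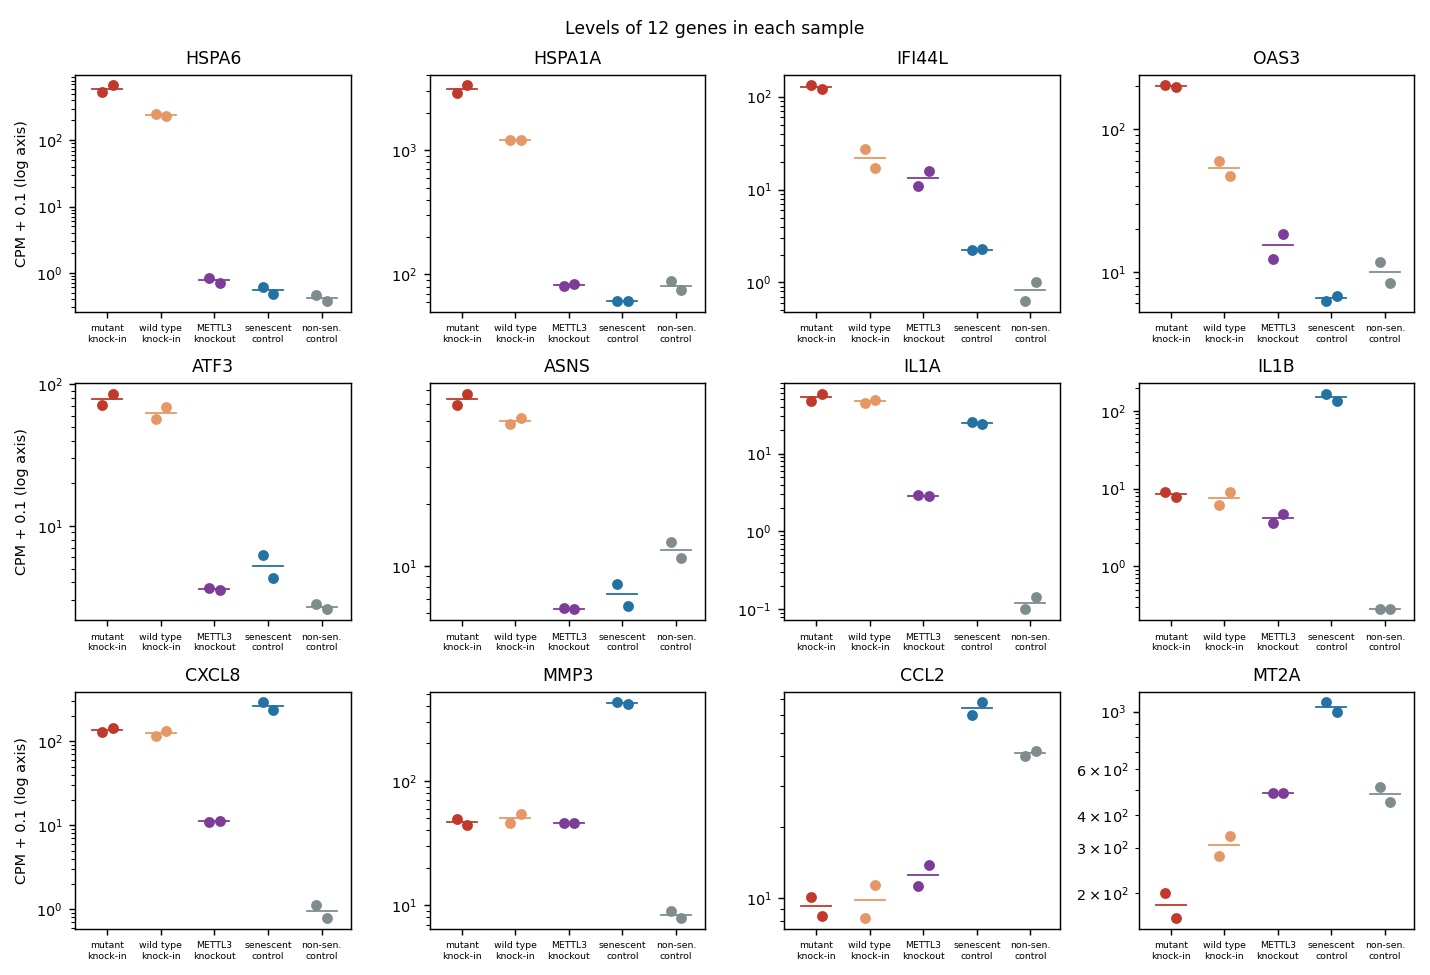
CPM + 0.1 of 12 genes in each of the 10 samples (log axis), with points for samples and a line for the group mean. HSPA6 was at 534 and 677 CPM and IL1B at 9.03 and 7.65 CPM in mutant knock-in, against 0.517 and 0.382 CPM and 166 and 133 CPM in senescent control.

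Immediate early and stress factors, which cells switch on within minutes of a signal, were mostly higher. Of 22 genes, 14 rose and 3 fell (27.3% and 25.8% of all genes), with a median of 0.70. ATF3, a stress-induced factor that pairs with AP-1 proteins, had 71.3 and 85.6 CPM in the mutant knock-in samples, against 6.09 and 4.16 CPM in the senescent control samples. Both mutant knock-in samples were well above senescent control, and ATF3 rose by 3.95 (SE 0.17, edgeR adjusted p 2.55e-08). EGR2 and EGR1, zinc-finger factors, rose by 4.94 (SE 0.28) and 2.45 (SE 0.14), KLF4 by 2.99 (SE 0.16) and GADD45A, a growth arrest gene, by 2.54 (SE 0.15). NR4A2, an orphan receptor, fell by 1.79 (SE 0.16) and IER3, a survival gene, by 1.57 (SE 0.14). FOS and JUNB had overlapping groups and did not pass the test, while JUN rose by 0.66 (SE 0.11). MYC fell by 0.59 (SE 0.11).

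Genes of the amino acid response were mostly higher. ATF4 is translated when amino acids run short or proteins misfold, and its targets make and import amino acids. Of 22 genes, 18 rose and none fell (27.3% and 25.8% of all genes), with a median of 1.05. ASNS, asparagine synthetase, had 58.97 and 67.02 CPM in the mutant knock-in samples, against 8.10 and 6.35 CPM in the senescent control samples, and rose by 3.13 (SE 0.14). The groups did not overlap. PSAT1 and PHGDH of serine synthesis rose by 2.39 (SE 0.10) and 1.99 (SE 0.18), CTH of cysteine synthesis by 2.76 (SE 0.20), and the heavy and light chains of the leucine transporter, SLC3A2 and SLC7A5, by 1.65 (SE 0.10) and 1.22 (SE 0.11). The feedback regulators TRIB3 and SESN2 rose by 2.71 (SE 0.12) and 2.43 (SE 0.10), and DDIT3, the factor CHOP, by 2.09 (SE 0.13). ATF4 mRNA rose by 0.79 (SE 0.09), to 139 and 144 CPM in mutant knock-in, against 84.95 and 78.6 CPM in senescent control. SLC7A11, the cystine importer, had 222 and 241 CPM in mutant knock-in, against 293 and 334 CPM in senescent control, and did not pass the test, at -0.44 (SE 0.34, edgeR adjusted p 0.32). The letters TGATGNAA of the C/EBP-ATF site occurred in 4 of 28 promoter windows (14.3%) of the 17 genes with an entry, and in 3.62% of all windows.

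Cytosolic aminoacyl-tRNA synthetases were divided, with 8 of 20 higher and 8 lower and a median of -0.03, and 5 were higher without senescent control replicate 1. Among all genes, 27.3% rose and 25.8% fell. AARS1, CARS1, YARS1 and MARS1 rose, by 1.99 (SE 0.11), 0.78 (SE 0.09), 0.84 (SE 0.09) and 0.74 (SE 0.09). FARSB and KARS1 fell by 1.11 (SE 0.10) and 0.92 (SE 0.09). Chaperones of the endoplasmic reticulum (ER) did not follow those of the cytosol. Of 20 genes of the ER and the unfolded protein response, 3 rose and 10 fell, with a median of -0.32, and 1 rose without mutant knock-in replicate 2 or without senescent control replicate 1. PDIA6, a disulfide isomerase, fell by 0.95 (SE 0.09) and HSP90B1, the ER Hsp90, by 0.91 (SE 0.15). ERN1, the ER stress sensor IRE1, rose by 2.04 (SE 0.11), with 125 and 151 CPM in mutant knock-in, against 33.5 and 33.5 CPM in senescent control, and HSPA5, the ER Hsp70 BiP, rose by 0.25 (SE 0.08), a call lost in 5 of 14 other settings.

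The secretory programme of senescence was examined by role, beginning with interleukin-1, which stands at its head. IL1A (ENSG00000115008) had 47.6 and 58.1 CPM in the mutant knock-in samples, against 24.9 and 24.1 CPM in the senescent control samples. Both ligands moved, in opposite directions: IL1A rose by 1.11 (SE 0.12, edgeR adjusted p 1.08e-05) and IL1B fell by 4.16 (SE 0.18). IL1B stayed above non-senescent control, where it had 0.177 and 0.183 CPM. The signalling receptor IL1R1 fell by 1.43 (SE 0.09), to 58.8 and 55.5 CPM in mutant knock-in, against 156 and 152 CPM in senescent control. Its co-receptor IL1RAP rose by 0.55 (SE 0.13) and IL1RL1, the receptor for interleukin-33, by 2.91 (SE 0.20). IL18 had overlapping groups and did not pass the test. Of 10 list members, IL33, IL36B, IL1RN and IL1R2 were under the filter on low counts.

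Chemokines that call neutrophils were mostly lower, beside 25.8% of all genes lower than in senescent control. Of 5 tested CXC ligands of CXCR1 and CXCR2, from a list of 7, 4 fell and 1 rose, with a median of -0.94, and 0 rose with any 1 of the 4 libraries left out. CXCL8 (ENSG00000169429), interleukin-8, had 129 and 143 CPM in the mutant knock-in samples, against 289.8 and 233 CPM in the senescent control samples. It was lower in both mutant knock-in samples than in either senescent control sample, and fell by 0.94 (SE 0.12, edgeR adjusted p 4.28e-05). CXCL5 fell by 1.37 (SE 0.20), CXCL1 by 1.31 (SE 0.21) and CXCL3 by 0.93 (SE 0.36). CXCL2 rose by 0.72 (SE 0.27). The calls of CXCL3 and CXCL2 were lost in 8 and 6 of 14 other settings. In METTL3 knockout CXCL8 stood at 10.97 and 11.1 CPM, and all 5 ligands were higher in mutant knock-in than in that group, as were 24.3% of all genes. Against wild type knock-in none of the 5 was called, with 5.57% of all genes higher and 5.97% lower.

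Among 7 tested chemokines of the CC and interferon-induced CXC classes, from a list of 12, 4 rose and 2 fell. The shares over all genes were 27.3% and 25.8%. CCL2 had 10.04 and 8.25 CPM in the mutant knock-in samples, against 59.8 and 67.5 CPM in the senescent control samples, with the groups apart. CXCL11 and CXCL10, ligands of CXCR3, rose by 2.82 (SE 0.36) and 0.71 (SE 0.20), the call of CXCL10 being lost in 3 of 14 other settings, and CCL26, an eosinophil attractant, by 1.83 (SE 0.34). CXCL9 had 18 summed counts in mutant knock-in against 1 in senescent control, a ratio of 22.3 (95% counting interval 3.52 to 928), and DESeq2 did not call it. CXCL12, the ligand of CXCR4, fell by 0.72 (SE 0.13). CCL20 did not pass the test. The median of 0.71 turned to -0.20 with a minimum count of 50, since fewer members were then tested.

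Interleukin-6, the best known SASP cytokine, did not pass the test. IL6 (ENSG00000136244) had 12.2 and 13.3 CPM in the mutant knock-in samples, against 13.9 and 13.95 CPM in the senescent control samples. The 2 groups lay close together, at a log2 change of -0.13 (SE 0.16, edgeR adjusted p 0.533). Of 14 tested genes of the IL6 family and the colony-stimulating factors, 3 rose and 7 fell, with a median of -0.39. Among all genes, 27.3% rose and 25.8% fell. CSF3 had 0.627 and 0.399 CPM in mutant knock-in, against 10.5 and 9.41 CPM in senescent control. CSF2, which drives granulocytes and macrophages, was under 2 CPM in every sample and fell by 2.41 (SE 0.51). IL11 and LIF, ligands of the IL6 family, fell by 1.40 (SE 0.15) and 0.90 (SE 0.13). CSF1, the macrophage factor, went the other way, with 96.1 and 101 CPM in mutant knock-in, against 23.8 and 22.5 CPM in senescent control, and rose by 2.09 (SE 0.12). TSLP, an epithelial-type cytokine, and IL15, a factor for natural killer cells, rose by 1.82 (SE 0.16) and 1.23 (SE 0.21). The shared receptor chain IL6ST had overlapping groups.

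Proteases and their inhibitors were mostly lower, beside 25.8% of all genes lower and 27.3% higher. Of 19 tested genes, 11 fell and 4 rose, with a median of -0.54, and 2 rose without mutant knock-in replicate 2 or without senescent control replicate 1. MMP1, the interstitial collagenase, had 778 and 674 CPM in the mutant knock-in samples, against 3197 and 3234 CPM in the senescent control samples, and fell by 2.15 (SE 0.11). MMP3 had 49.7 and 43.9 CPM in mutant knock-in, against 428 and 414 CPM in senescent control. Neither gene overlapped between the groups. MMP2, the gelatinase, rose by 0.31 (SE 0.10), a call lost when any 1 of the 4 libraries was left out. MMP8 was very low, with 46 summed counts against 3, a ratio of 18.98 (95% counting interval 6.10 to 95.4). The inhibitors TIMP1, TIMP2 and TIMP3 fell by 1.17 (SE 0.10), 0.95 (SE 0.13) and 0.54 (SE 0.11). In the plasminogen system PLAT, PLAU and SERPINB2 fell by 2.21 (SE 0.13), 0.96 (SE 0.10) and 0.87 (SE 0.10), and SERPINE2 rose by 0.74 (SE 0.09).

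Of 28 tested growth factors and binding proteins, 15 fell and 6 rose (25.8% and 27.3% of all genes), with a median of -0.48. Of 4 tested ligands of the EGF receptor family 3 fell. EREG had 137 and 149 CPM in mutant knock-in, against 525 and 491 CPM in senescent control, and fell by 1.83 (SE 0.11), AREG fell by 1.29 (SE 0.14) and NRG1 by 1.19 (SE 0.09). STC1, a secreted glycoprotein hormone, fell to 1081 and 969 CPM in mutant knock-in, against 3909 and 3927 CPM in senescent control, and HGF, a ligand of MET, fell by 1.49 (SE 0.12). Among TGF-beta relatives BMP6 and BMP2 fell by 2.47 (SE 0.23) and 1.47 (SE 0.11), while GDF15, a stress hormone, and BMP4 rose by 1.26 (SE 0.13) and 1.51 (SE 0.15). INHBA, a subunit of activin A, had overlapping groups. PGF, a placental growth factor, rose by 2.03 (SE 0.38). IGFBP3, IGFBP4 and IGFBP5 fell by 1.21 (SE 0.18), 0.89 (SE 0.15) and 1.15 (SE 0.11), and IGFBP7 rose by 0.53 (SE 0.12).

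NF-kB, the main activator of SASP genes, is a dimer of REL proteins that IkB proteins hold back. Of 10 subunits and inhibitors 6 rose and none fell (27.3% and 25.8% of all genes), with a median of 0.93. NFKB1, which encodes p105 and p50, had 136 and 158 CPM in the mutant knock-in samples, against 43.4 and 40.6 CPM in the senescent control samples, and rose by 1.81 (SE 0.11). The samples of the groups were well apart. RELB and REL rose by 1.78 (SE 0.12) and 1.78 (SE 0.22), NFKB2 by 0.69 (SE 0.12), and NFKBIE, an IkB, by 2.03 (SE 0.15). RELA had 97.4 and 99.1 CPM in mutant knock-in, against 112 and 113 CPM in senescent control, and did not pass the test, at -0.20 (SE 0.11, edgeR adjusted p 0.143), but it was called lower in 4 of 14 other settings, at -0.20 to -0.27. NFKBIA, the most direct feedback inhibitor, had overlapping groups. Of 18 feedback and effector targets 9 rose and 3 fell, with a median of 0.21. TRAF1, an adaptor, had 40.1 and 48.5 CPM in mutant knock-in, against 3.05 and 2.82 CPM in senescent control, and rose by 3.92 (SE 0.14). TNFAIP3, the inhibitor A20, rose by 2.62 (SE 0.11), the surface protein CD83 by 2.57 (SE 0.20), BIRC3, an inhibitor of apoptosis, by 2.12 (SE 0.15), and the adhesion molecules VCAM1 and ICAM1 by 1.55 (SE 0.16) and 1.01 (SE 0.14). BCL2A1, a survival protein, fell by 1.67 (SE 0.30), the pattern-recognition protein PTX3 by 1.30 (SE 0.10) and TNFAIP6 by 1.21 (SE 0.21). Against METTL3 knockout, 8 of the 10 subunits and inhibitors and 17 of the 18 targets were higher in mutant knock-in. The target PTX3 was lower. In that comparison 24.3% of all genes were higher and 24.0% lower.

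**Figure D3:**
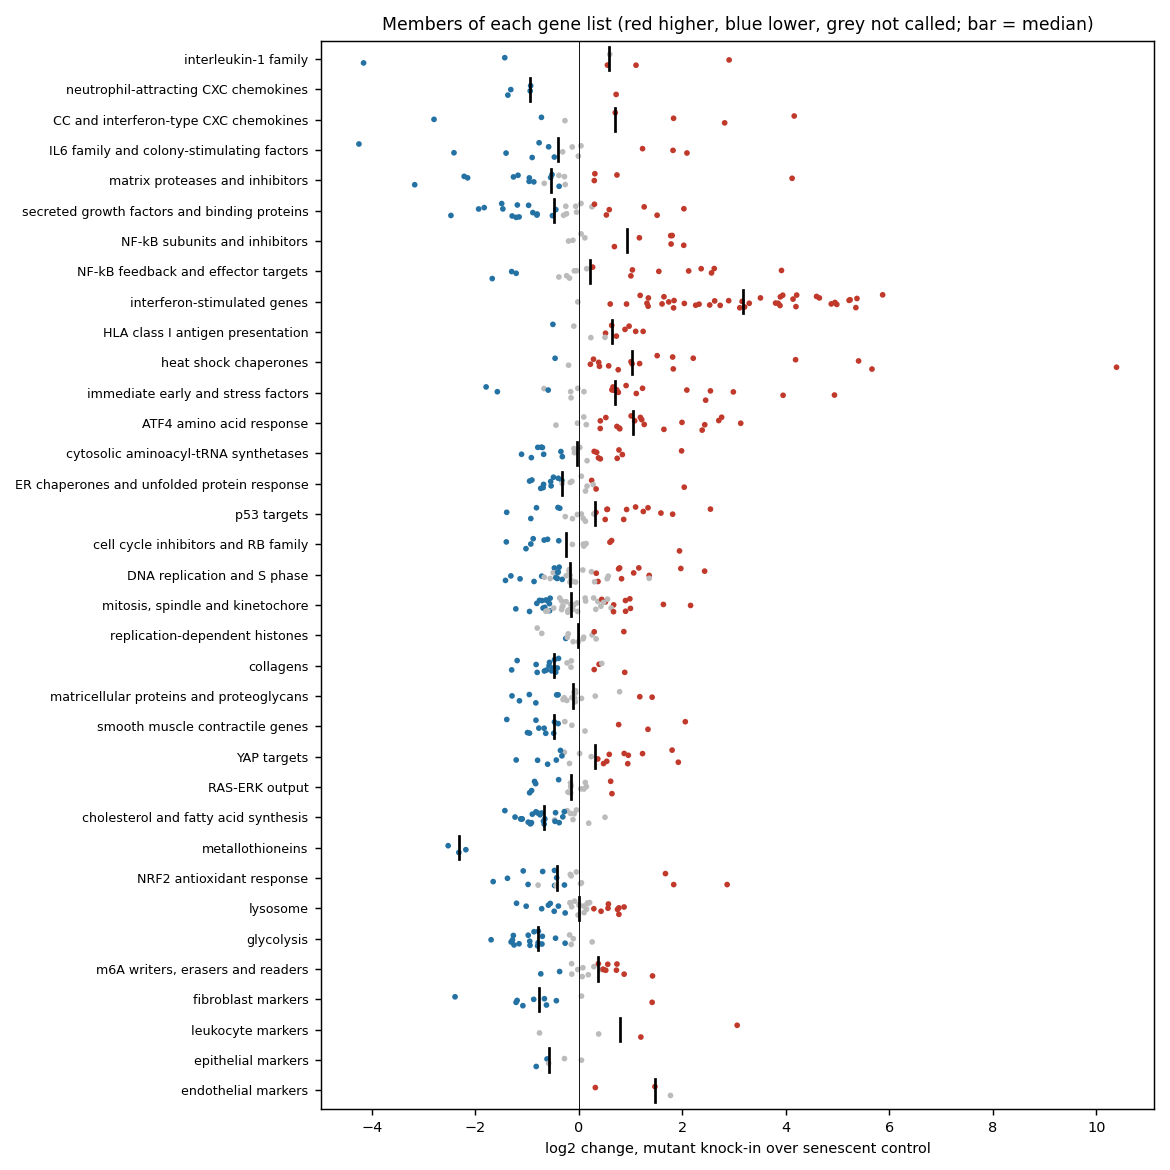
Log2 change of mutant knock-in over senescent control for every tested member of 35 gene lists, 1 point a gene, red where higher, blue where lower and grey where not called, with a bar at the list median. Interferon-stimulated genes have the highest median, 3.18, and metallothioneins the lowest, -2.32.

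The arrest itself was read from p53 targets, inhibitors and cycle genes. CDKN1A (ENSG00000124762), the inhibitor p21, had 552 and 473 CPM in the mutant knock-in samples, against 981 and 968 CPM in the senescent control samples, and fell by 0.93 (SE 0.10). CDKN2A, which encodes p16 and ARF, had 39.1 and 40.1 CPM in mutant knock-in, against 58.3 and 61.8 CPM in senescent control, and fell by 0.60 (SE 0.10). Both inhibitors were thus lower in each mutant knock-in sample than in either senescent control sample. CDKN2B, p15, rose by 0.64 (SE 0.10), and CDKN2C, p18, was under 1 CPM in senescent control, and rose by 1.95 (SE 0.28). CCND3 and CCND1, D-type cyclins, fell by 1.40 (SE 0.11) and 0.88 (SE 0.09), and RB1 by 0.67 (SE 0.15). LMNB1, the lamina protein lost in senescence, had 3.70 and 2.80 CPM in mutant knock-in, against 3.10 and 2.82 CPM in senescent control, overlapping, and did not pass the test at 0.14 (SE 0.20, edgeR adjusted p 0.573). Of 24 p53 targets 12 rose and 5 fell (27.3% and 25.8% of all genes), with a median of 0.31. BTG2, an antiproliferative gene, and BBC3, the death gene PUMA, rose by 1.81 (SE 0.10) and 1.59 (SE 0.21), and ZMAT3, an RNA-binding protein, fell by 1.39 (SE 0.18).

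Genes of DNA replication and mitosis were divided, in shares near those of all genes, of which 27.3% rose and 25.8% fell. Of 40 S phase genes 10 rose and 12 fell, with a median of -0.17, and of -0.05 without senescent control replicate 2. Without mutant knock-in replicate 2 these counts were 6 and 7, and without senescent control replicate 1, 7 fell. CHAF1B, a histone chaperone subunit, and POLA1, the polymerase of the primase complex, rose by 1.97 (SE 0.21) and 1.36 (SE 0.22), and GINS4 and RRM2 fell by 1.42 (SE 0.14) and 1.31 (SE 0.12). Of 50 mitotic genes 10 rose and 12 fell, with a median of -0.14 (-0.26 to -0.05 with 1 library left out), and 6 rose without mutant knock-in replicate 2. KIF15, a spindle motor, and CENPA, the centromeric histone, rose by 2.16 (SE 0.27) and 1.64 (SE 0.30), and CDC20, an activator of the anaphase-promoting complex, fell by 1.22 (SE 0.20). TOP2A had 20.2 and 23.6 CPM in mutant knock-in, against 32.8 and 38.7 CPM in senescent control, and fell by 0.71 (SE 0.18), though not without mutant knock-in replicate 1. MKI67 had 50.4 and 53.5 CPM in mutant knock-in, against 35.9 and 38.7 CPM in senescent control, and did not pass the test at 0.48 (SE 0.21), but was called higher in 7 of 14 other settings. The mitotic list summed to 699.9 and 782 CPM in mutant knock-in and 706 and 782 CPM in senescent control. It summed to 1521 and 1329 CPM in METTL3 knockout and to 3474 and 4099.6 CPM in non-senescent control. Against METTL3 knockout, 39 of the 50 genes were lower in mutant knock-in and 1 was higher. In that comparison 24.0% of all genes were lower and 24.3% higher.

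Collagens and smooth muscle contractile genes were mostly lower. Of 21 collagens 14 fell and 3 rose, with a median of -0.47, and 8 fell without mutant knock-in replicate 2. COL1A1, the main fibrillar chain, had 1030.4 and 745 CPM in the mutant knock-in samples, against 1896 and 2156 CPM in the senescent control samples, and fell by 1.19 (SE 0.20). The groups were apart, with a visible gap between the 2 mutant knock-in samples. COL4A5 of basement membrane fell by 1.30 (SE 0.10) and COL6A3 by 0.82 (SE 0.11). COL13A1, COL15A1 and COL8A1 were the 3 that rose. At most 1 of them was called with any 1 of the 4 libraries left out. Of 20 matricellular proteins and proteoglycans 6 fell (beside 25.8% of all genes) and 2 rose, with a median of -0.11, and without senescent control replicate 2, 4 fell and 3 rose. THBS1, an activator of TGF-beta, fell by 1.15 (SE 0.12) and tenascin TNC by 0.83 (SE 0.12), while LUM and POSTN rose by 1.42 (SE 0.15) and 1.18 (SE 0.13). Fibronectin, FN1, had overlapping groups. Of 16 tested smooth muscle contractile genes 10 fell and 3 rose, with a median of -0.48. ACTG2 and ACTA2, smooth muscle actins, fell by 1.39 (SE 0.13) and 0.83 (SE 0.11), TPM2 by 0.99 (SE 0.10) and TAGLN by 0.95 (SE 0.10). SYNPO2, an actin-bundling protein, rose by 1.34 (SE 0.17). Of 10 fibroblast markers, which include COL1A1, COL1A2, COL3A1, LUM and DCN of these lists, 8 fell and 1 rose. They summed to 6252 and 5530 CPM in mutant knock-in, against 10296 and 11074 CPM in senescent control, and their part in these results was not tested. Of 5 tested epithelial markers KRT18 and KRT19 were the 2 that fell, and of 3 tested endothelial markers 2 rose, of which TEK lost its call in 5 of 14 other settings and KRT19 in 4. The epithelial sum was 24.0 and 28.1 CPM in mutant knock-in, against 37.1 and 36.1 CPM in senescent control, and the endothelial sum was 26.8 and 28.4 CPM in mutant knock-in, against 19.4 and 21.1 CPM in senescent control. KRT5 and CLDN5 were at 0 in all 4 samples.

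YAP targets, which report mechanical and Hippo signals, had 10 of 20 members higher and 6 lower, with a median of 0.30, and 3 were lower without mutant knock-in replicate 2 or without either senescent control replicate. Among all genes, 27.3% rose and 25.8% fell. ANKRD1 and NUAK2 rose by 1.92 (SE 0.20) and 1.80 (SE 0.14), while FJX1 fell by 0.80 (SE 0.15). RAS drives the arrest in these cells, and the labels do not name the isoform. HRAS (ENSG00000174775) had 31.3 and 24.9 CPM in the mutant knock-in samples, against 63.97 and 64.2 CPM in the senescent control samples. Both mutant knock-in samples were lower than both senescent control samples, and HRAS fell by 1.19 (SE 0.11, edgeR adjusted p 3.53e-06). It had 14.95 and 14.9 CPM in non-senescent control. Of 16 genes of RAS-ERK output, 5 fell (beside 25.8% of all genes) and 2 rose, with a median of -0.16. Only 1 rose without mutant knock-in replicate 2 or without senescent control replicate 1. The feedback phosphatases DUSP4 and DUSP6 fell by 0.95 (SE 0.14) and 0.91 (SE 0.10) and SPRY2 by 0.85 (SE 0.10), while SPHK1 rose by 0.64 (SE 0.12) and SPRY1 by 0.62 (SE 0.18), a call lost in those 2 settings. The part of the lower HRAS level in the changes above was not tested.

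Genes of glycolysis and lipid synthesis were mostly lower. Of 21 genes of glycolysis, which breaks glucose down to pyruvate and lactate, 17 fell and none rose, with a median of -0.80 beside 0.05 for all genes, of which 25.8% fell. LDHA, which makes lactate, had 236 and 221 CPM in the mutant knock-in samples, against 741 and 737 CPM in the senescent control samples, and fell by 1.69 (SE 0.10). GAPDH had 1423 and 1330.4 CPM in mutant knock-in, against 3357 and 3330.1 CPM in senescent control, and fell by 1.28 (SE 0.09). No value overlapped. ALDOA fell by 1.31 (SE 0.10), GPI by 1.26 (SE 0.10) and PFKFB4, a regulator of the pathway, by 1.25 (SE 0.16). The glucose transporters SLC2A1 and SLC2A3 and the enzymes PFKFB3 and ALDOC did not pass the test. Of 30 tested genes of cholesterol and fatty acid synthesis, 22 fell and none rose, with a median of -0.67. MVD of the mevalonate pathway fell by 1.43 (SE 0.15), fatty acid synthase FASN by 1.23 (SE 0.14) and IDI1 by 1.12 (SE 0.14). SREBF2, the factor that turns on sterol synthesis genes, had 66.9 and 61.03 CPM in mutant knock-in, against 113 and 114 CPM in senescent control, and fell by 0.83 (SE 0.09). HMGCS1 and INSIG1 did not pass the test, at 0.19 (SE 0.12) and -0.11 (SE 0.09). The sterol element TCACNCCAC occurred in 1 of 30 promoter windows (3.33%) of the 23 genes with an entry and in 1.13% of all windows.

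Metallothioneins, small cysteine-rich proteins that bind zinc and copper, had the lowest median of the lists, -2.32. Of 7 genes, MT1A, MT1F, MT1G and MT1M were under the filter, and all 3 tested fell. MT2A (ENSG00000125148) had 201 and 161 CPM in the mutant knock-in samples, against 1085 and 993 CPM in the senescent control samples, and fell by 2.52 (SE 0.13, edgeR adjusted p 5.34e-08). MT1X and MT1E fell by 2.32 (SE 0.16) and 2.18 (SE 0.11). Both mutant knock-in samples were also under non-senescent control, where MT2A had 513 and 449 CPM. The 130 bases before the MT2A start are shown with the core letters of the metal response element, TGCNCNC on either strand, in capitals.
MT2A (chr16:56608454-56608583, plus strand): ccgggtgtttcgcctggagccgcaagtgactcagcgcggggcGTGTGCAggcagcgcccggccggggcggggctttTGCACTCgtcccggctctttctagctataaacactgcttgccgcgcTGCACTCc
The core is short, and 55.9% of all windows hold it, as did both windows of the 2 genes with an entry.

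NRF2 targets, which counter oxidative stress, were more often lower than higher. Of 19 genes 9 fell and 3 rose (25.8% and 27.3% of all genes), with a median of -0.43. NQO1 fell by 1.65 (SE 0.10) and thioredoxin, TXN, by 1.38 (SE 0.10). HMOX1, heme oxygenase, which heat shock and heme also induce, had 147 and 141 CPM in the mutant knock-in samples, against 19.5 and 19.97 CPM in the senescent control samples, and rose by 2.87 (SE 0.12). Its samples stood far apart. OSGIN1 rose by 1.68 (SE 0.13). The ferritin genes FTL and FTH1 did not pass the test.

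The m6A machinery was examined because METTL3 belongs to it. METTL14, the partner subunit, had 30.4 and 31.01 CPM in the mutant knock-in samples, against 26.8 and 27.2 CPM in the senescent control samples. The difference was small and did not pass the test, at 0.18 (SE 0.14, edgeR adjusted p 0.302). Of 19 tested genes 9 rose and 2 fell, with a median of 0.38, and 1 fell when any 1 library but mutant knock-in replicate 1 was left out. Among all genes, 27.3% rose and 25.8% fell. The nuclear reader YTHDC1 had 169 and 183 CPM in mutant knock-in, against 66.8 and 64.1 CPM in senescent control, and rose by 1.43 (SE 0.11). YTHDF2, the reader that leads to decay, rose by 0.88 (SE 0.09), the writer adaptor RBM15 by 0.74 (SE 0.09) and WTAP, which anchors the writer, by 0.52 (SE 0.10). IGF2BP3, a stabilising reader, fell by 0.73 (SE 0.15) and the eraser ALKBH5 by 0.37 (SE 0.12), a call lost in 5 of 14 other settings. The eraser FTO did not pass the test.

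Changes were unevenly spread over gene types, levels and lengths. Of 780 tested long intergenic RNAs 31.7% rose and 6.03% fell, with a median of 0.55, and of 726 antisense genes 25.9% rose and 8.54% fell, with a median of 0.43. Of 13394 protein-coding genes 27.3% rose and 30.4% fell, with a median of -0.02. Long intergenic RNAs took 3.61% and 3.56% of the counts in mutant knock-in, against 2.54% and 2.34% in senescent control. In the lowest of 5 bins of protein-coding genes by mean CPM, 36.4% rose and 7.17% fell, and in the highest bin 18.7% rose and 48.6% fell. Low genes have wide errors, so the shares called at different levels are not measured with equal power. Medians ran from 0.62 in the lowest bin to -0.26 in the highest. The filter keeps a gene that reaches the minimum count in a single group, so low bins can hold genes kept through mutant knock-in alone. The part of such genes in these medians, and in those of long intergenic and antisense RNAs, was not tested. By the length of the longest transcript, 16.8% rose and 38.3% fell in the shortest bin, and 35.8% rose and 23.7% fell in the longest. Medians were -0.22 in the shortest bin and 0.12 in the longest. Among genes with a mean of at least 10 CPM, chosen as a check after the data were seen, the medians were -0.35 and 0.02. Transcript lengths come from an annotation of another build than the counts and show order only.

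**Figure D4:**
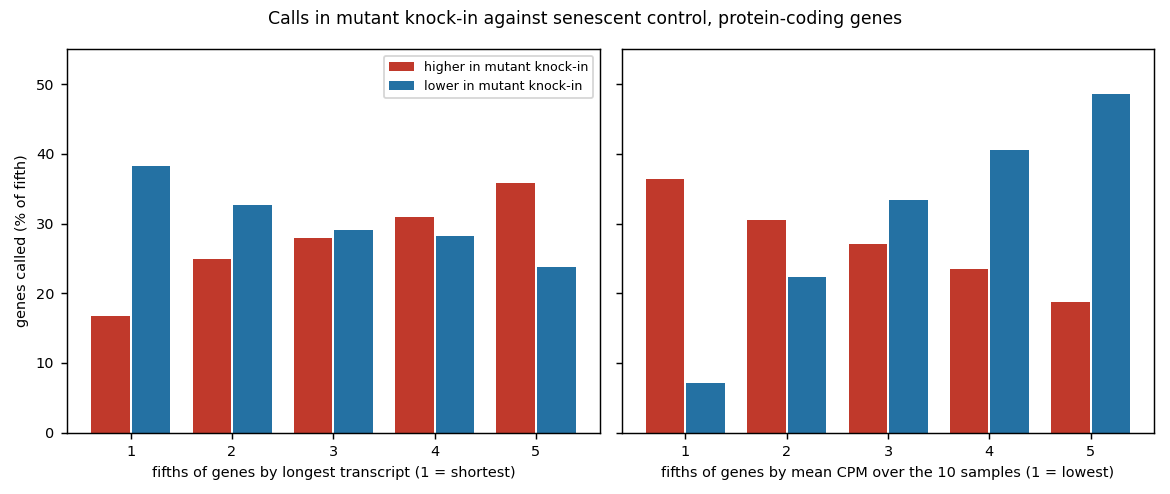
Share of tested protein-coding genes called higher (red) and lower (blue) in mutant knock-in against senescent control, by 5 bins of transcript length (left) and of mean CPM over the 10 samples (right). The share higher is 16.8% in the shortest bin and 35.8% in the longest, and the share lower is 7.17% in the lowest bin by level and 48.6% in the highest.

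Setting mutant knock-in against wild type knock-in asks what differed with the mutation, although METTL3 RNA was also 2.28 times higher, so the mutation and the level cannot be told apart. In edgeR's test 943 genes (5.57%) were higher in mutant knock-in and 1010 (5.97%) lower, and by at least 1 on the log2 scale 304 (1.80%) higher and 20 (0.118%) lower. The 943 and 1010 were both smaller with any 1 mutant or wild type knock-in library left out, most so without mutant knock-in replicate 2. Such a fit leaves 1 sample in a group and has less power, so it does not show which library the calls rest on. Interferon-stimulated genes held the 5 largest rises among genes with a mean of at least 5 CPM and no overlap. MX2 had 21.3 and 20.8 CPM in mutant knock-in, against 3.56 and 2.19 CPM in wild type knock-in, and was higher by 2.89 (SE 0.21) on the log2 scale (edgeR adjusted p 4.59e-05). OAS1, IFI44L, OASL and MX1 were higher by 2.66 (SE 0.25), 2.54 (SE 0.20), 2.51 (SE 0.31) and 2.43 (SE 0.23). Of the 42 interferon-stimulated genes 36 were higher and none lower, with a median of 1.21, and 27 were called without mutant knock-in replicate 1, 24 without mutant knock-in replicate 2, 34 without wild type knock-in replicate 1 and 21 without wild type knock-in replicate 2. ATXN7L3B, a relative of a deubiquitinase adaptor, had 28.9 and 26.7 CPM in mutant knock-in, against 66.1 and 67.2 CPM in wild type knock-in, the largest fall by that rule, at -1.26 (SE 0.09). INMT, SLC16A6 and FAM229B were lower by 1.06 (SE 0.16), 1.03 (SE 0.11) and 1.01 (SE 0.17), and STIMATE-MUSTN1, a readthrough gene that overlaps its neighbours, by 1.07 (SE 0.25). The calls of INMT and FAM229B were lost without mutant knock-in replicate 2, and that of STIMATE-MUSTN1 without either mutant knock-in library or wild type knock-in replicate 2.

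Heat shock genes were also higher than in wild type knock-in, with 10 of 19 called and none lower, a median of 0.47, and 6 or 7 called with 1 library left out. HSPA6 had 534 and 677 CPM in mutant knock-in, against 246 and 236 CPM in wild type knock-in, and was higher by 1.33 (SE 0.11). Wild type knock-in thus stood between mutant knock-in and senescent control for HSPA6. IL6 had 12.2 and 13.3 CPM in mutant knock-in, against 5.38 and 6.77 CPM in wild type knock-in, and was higher by 1.06 (SE 0.17, edgeR adjusted p 0.0044), but was not called without mutant knock-in replicate 2. IL1A, IL1B, CXCL8, CCL2, MMP1 and MMP3 were not called, with log2 changes of 0.19 (SE 0.11), 0.14 (SE 0.20), 0.13 (SE 0.12), -0.09 (SE 0.18), 0.04 (SE 0.10) and -0.09 (SE 0.11). CDKN1A had 552 and 473 CPM in mutant knock-in, against 855 and 947 CPM in wild type knock-in, and was lower by 0.81 (SE 0.10). Of 50 mitotic genes 15 were higher and none lower, but 0 were called without mutant knock-in replicate 2, 1 without wild type knock-in replicate 2, 10 without mutant knock-in replicate 1 and 8 without wild type knock-in replicate 1. Glycolysis had 10 of 21 genes lower and cholesterol and fatty acid synthesis 11 of 30, and both counts were 0 without mutant knock-in replicate 2 and without wild type knock-in replicate 2. Without mutant knock-in replicate 1 they were 5 and 3, and without wild type knock-in replicate 1 both were 6.

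Against METTL3 knockout, 4110 genes (24.3%) were higher in mutant knock-in and 4055 (24.0%) lower, 1916 (11.3%) and 672 (3.97%) of them by at least 1. IL1A had 47.6 and 58.1 CPM in mutant knock-in, against 2.80 and 2.73 CPM in METTL3 knockout, and was higher by 4.25 (SE 0.15). CXCL8 had 129 and 143 CPM in mutant knock-in, against 10.97 and 11.1 CPM in METTL3 knockout, and was higher by 3.63 (SE 0.14). IL1B was higher by 1.03 (SE 0.22) and IL6 by 2.26 (SE 0.19), while MMP3 and CCL2 did not pass the test, at 0.03 (SE 0.11) and -0.44 (SE 0.17). These comparisons share the mutant knock-in samples, so their values are set side by side only. Heat shock genes had 16 of 19 higher, interferon-stimulated genes 39 of 42 and the amino acid response 18 of 22.

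**Figure D5:**
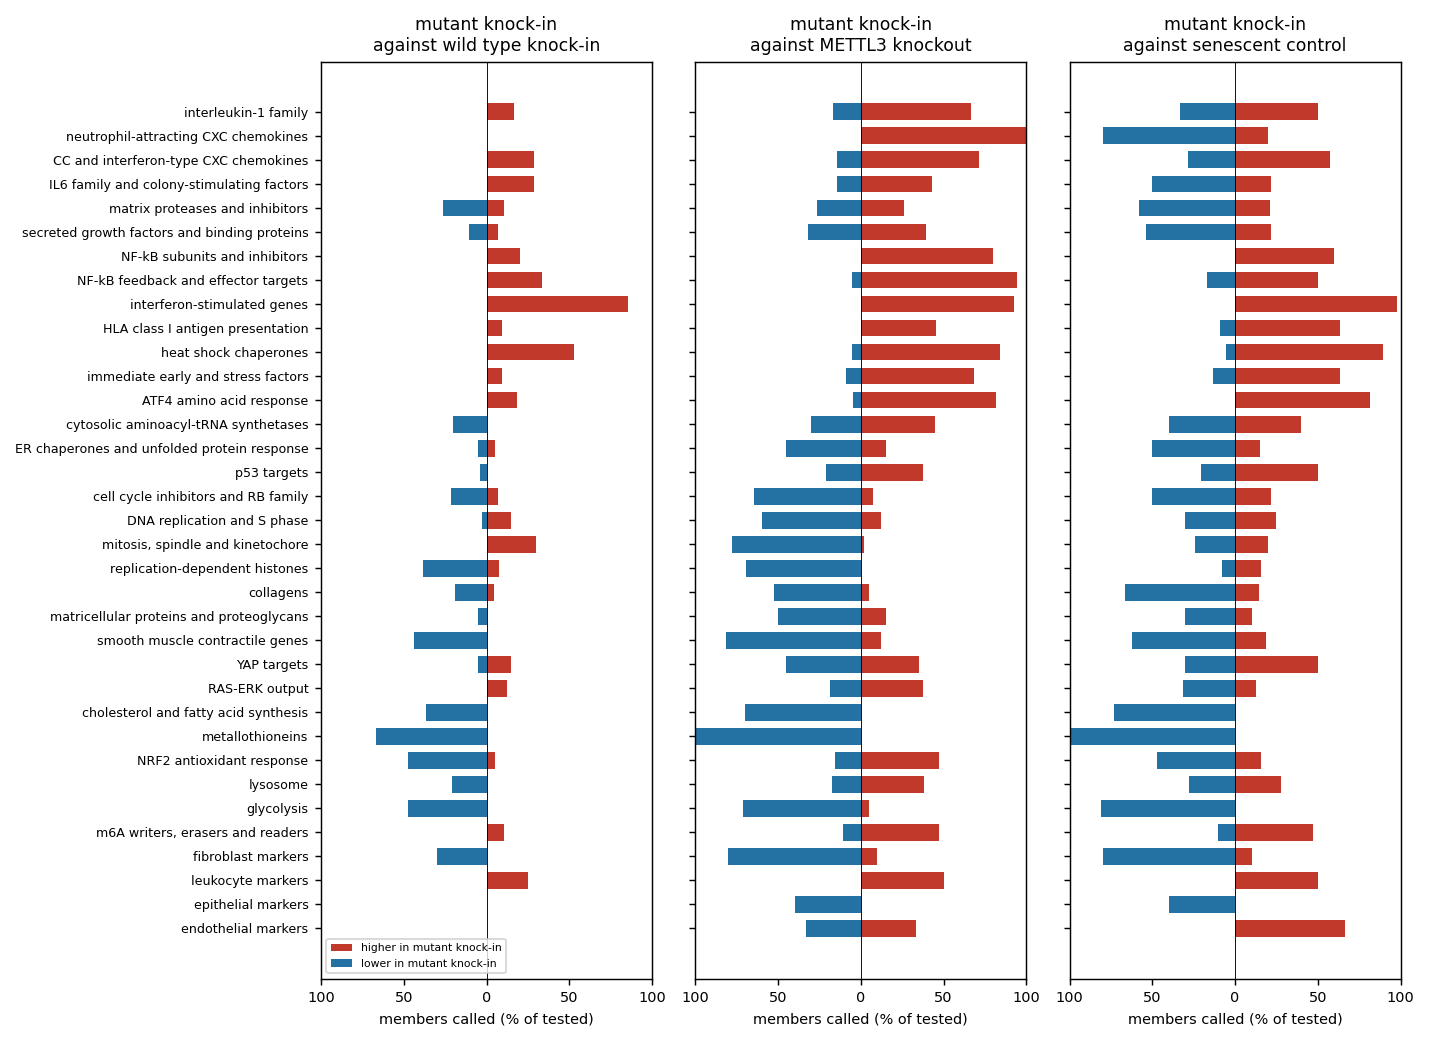
Share of tested members called higher (red, right) or lower (blue, left) in mutant knock-in for 35 gene lists, against wild type knock-in, METTL3 knockout and senescent control. Interferon-stimulated genes reach 36, 39 and 41 of 42 members higher in the 3 panels, and neutrophil-attracting chemokines have 5 of 5 higher against METTL3 knockout and 4 of 5 lower against senescent control.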

How the data were processed

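RNA-seq of 10 samples in 5 groups of 2 was used. The authors deposited whole-number counts per Ensembl gene, made with Bowtie2 and RSEM 1.2.12 on hg19 per the submitters' processing notes. Annotation, strandedness and the handling of reads that map to several genes are not named there, so near-identical, overlapping and antisense genes are uncertain. Cells were IMR90, and RNA was purified with RNeasy and DNase I before KAPA RNA HyperPrep libraries, per the labels' protocols. Members and gene lists were chosen with earlier results of these data known.

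METTL3 was left out of totals and fits. Genes were kept by filterByExpr (minimum count 10), scaled by TMM and tested 2-sided with edgeR 4.0.16 in R 4.3.3 (robust glmQLFit and glmQLFTest, 1 coefficient per group, all 10 samples, 5 residual degrees of freedom, Benjamini-Hochberg adjustment over 16915 genes, adjusted p under 0.05). The dispersion over these samples corresponded to a coefficient of variation of 9.33%. The test recovered 75.8% of 2-fold and 89.8% of 4-fold changes in counts simulated for mutant knock-in against senescent control over 16129 genes. Few genes were changed in that simulation, unlike in the data, so these shares do not give the recovery in the real comparison. CPM are counts over the scaled total of the other genes. Other settings used RLE or upper-quartile factors, METTL3 kept, other filters, DESeq2 1.42.0, limma voom 3.58.1, fewer samples, a replicate block and left-out libraries. Intervals of shares and of count ratios cover counting error only.

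Symbols came from the annotation tables, with 660 of 674 symbols over 35 lists matched and 628 tested. CCL3, CCL5, MMP12, UHRF1, H2AC16, H2AC17, H2BC9, H2BC14, H3C2, H3C7, H3C8, ACACA, RBM15B and PECAM1 were not matched and are not used here. Gene types and transcript lengths came from GENCODE on GRCh38, whose coordinates were not joined to the counts. Named genes were the 10 largest changes each way among genes with a symbol, an adjusted p under 0.05, a mean of at least 5 CPM in the higher group and no overlap. To these came, in each list, up to 3 called genes in the commoner direction and 2 in the other, the 5 largest changes each way against wild type knock-in, and 17 genes of METTL3, RAS, arrest and secretion. The other members named, 95 in number, were chosen after their values were seen. Some genes of the rule and lists are counted but not reported here by name.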

Additional observations from a re-analysis of the deposited data

How the results depend on the processing

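Against senescent control, the numbers of genes higher and lower stayed within 1.5 times the reported ones under all 14 other settings: 3288 to 3680 higher and 3459 to 3904 lower with 1 library left out, 5286 and 3695 with upper-quartile factors, where the median of all genes was 0.14, and 3734 and 3959 with DESeq2. Genes higher by at least 1 numbered 1362 with a minimum count of 50, which tests fewer genes. They numbered 2486 with upper-quartile factors and 2507 with no filter on low counts. Genes lower by at least 1 numbered 642, 727 and 1133 in these settings. The median of the CC and interferon-type CXC chemokines was -0.20 with a minimum count of 50. Against wild type knock-in the numbers higher and lower depended on the setting: 581 higher with DESeq2, 1761 lower with no filter, 1973 and 1968 with limma voom, 2344 and 2522 in the 8 senescent samples, and 89 to 474 and 30 to 548 with 1 library left out. The 2 non-senescent control samples agreed least, with a chi-square per degree of freedom between replicates of 37.9. It was 3.90 to 6.69 in the other groups. The coefficient of variation was 9.33% over all 10 samples. It was 6.47% in the 8 senescent samples and 5.78% in only the 4 samples of mutant knock-in and senescent control. The part of this spread in the numbers called was not tested. Leaving out wild type knock-in libraries was chosen after seeing the data. Deviations of replicates with the same number had a correlation of -0.0047 between mutant knock-in and senescent control over 16915 genes. The correlation was -0.091 between mutant knock-in and wild type knock-in, and -0.146 to 0.085 over all pairs of groups. The labels do not say whether replicates with the same number were handled together, and these values cannot decide it. With a replicate block 4563 genes were higher and 4350 lower, 2183 and 905 by at least 1, and 852 and 893 against wild type knock-in. Of the genes named, 1 to 17 lost their call under each setting that lost any, most often with a library left out, among them COL15A1, COL13A1, PSMB9, CXCL3, CXCL2, MMP2, HSP90AB1, H2AC6, H2BC12 and TEK, and no called gene changed sign. FTH1, SLC2A3, HMGCS1, FTO and SLC7A11 gained a call under 1 to 4 settings. With 2 samples a group and 16293975 or more counts each, changes of genes with few counts are the least certain.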

Other observations

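Lysosomal genes were divided between mutant knock-in and senescent control, with 8 of 29 higher, 8 lower and a median of 0.01. These shares were close to those of all genes, of which 27.3% were higher and 25.8% lower. HEXA, which degrades gangliosides, rose by 0.88 (SE 0.09) and TPP1, a peptidase, by 0.78 (SE 0.09). CTSL, a cysteine protease, had 75.4 and 71.7 CPM in mutant knock-in, against 151 and 147 CPM in senescent control, and fell by 1.02 (SE 0.08), and the membrane protein CD63 fell by 1.20 (SE 0.10). GLB1, which gives the senescence-associated beta-galactosidase activity, had 68.5 and 59.2 CPM in mutant knock-in, against 92.9 and 94.3 CPM in senescent control. Both values were lower in mutant knock-in, and GLB1 fell by 0.55 (SE 0.11) in edgeR's test.

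Few replication-dependent histone genes passed the test, beside 27.3% of all genes higher and 25.8% lower. Of 13 tested genes 2 rose and 1 fell, with a median of -0.01, and with 1 library left out 1 was called higher each time and 0 to 2 lower. H2BC5 had 13.6 and 14.4 CPM in mutant knock-in, against 8.22 and 7.12 CPM in senescent control, and rose by 0.87 (SE 0.12). These transcripts mostly lack poly(A) tails and have close copies that can share reads.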
